A study of Homo sapiens with 8 samples.

Results

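The 40 genes described here encode the folding machinery of the endoplasmic reticulum, the sensors of the unfolded protein response, factors that degrade misfolded proteins, and subunits through which nascent chains enter the organelle. They were chosen by name, from a list of gene symbols, with earlier results of these data known. The list was therefore not blind to the comparisons below. Of 60754 genes quantified, a filter on low counts left 17314 for testing, and all 40 passed it. By role they comprise 9 ATPase chaperones and their co-chaperones, 13 lectin chaperones, disulfide isomerases and prolyl isomerases, 4 stress sensors and transducers, 5 degradation factors, and 9 subunits of the translocation channel and the signal peptidase.

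Proteins bound for the cell surface, for secretion or for granules are folded in the lumen of the endoplasmic reticulum with the help of HSPA5 (BiP), HSP90B1 (GRP94), calreticulin and the protein disulfide isomerases. When unfolded chains accumulate, ATF6, ERN1 (IRE1) and EIF2AK3 (PERK) signal to the nucleus. ATF6 and spliced XBP1 activate chaperone and degradation genes, and PERK slows translation and induces ATF4 and its targets.

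The RNA was that of MEG-01, a long-established line grown from a human megakaryoblastic leukaemia, in a study of the drug exporter ABCC4 in megakaryocyte development. The 4 groups held 2 libraries each. They were cells given 100 nM PMA together with 20 µM Ceefourin 2, cells given 100 nM PMA, cells given Ceefourin 2 without PMA, and untreated cells, with 48 h of treatment in the treated groups. PMA, a phorbol ester and activator of protein kinase C, pushes this line towards megakaryocytic features, and Ceefourin 2 is a small-molecule inhibitor of ABCC4. For Ceefourin 2 without PMA, the sources used here give no dose. Nothing in the labels says that replicates came from separate cultures, so p values measure the spread between these libraries, which may be technical. In bulk RNA, fewer cells of a type and less RNA per cell cannot be told apart.

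Library totals ran from 44430292 to 89950886 expected counts. Markers of the lineage were present: 8 megakaryocytic markers summed to 1242 and 1325 TPM (a level per transcript length) with PMA plus Ceefourin 2 and 1220 and 1330 TPM with PMA, against 471 and 545 TPM with Ceefourin 2 and 450.1 and 455 TPM in untreated cells. PF4, a late marker, was at or near 0 throughout. Erythroid markers summed to 276 and 387 TPM with PMA plus Ceefourin 2, 490.4 and 478 TPM with PMA, 842 and 781 TPM with Ceefourin 2, and 1733 and 1576 TPM in untreated cells. Plasma cell markers, of interest because those cells are rich in endoplasmic reticulum, summed to 0.07 to 0.43 TPM, and 3 lymphocyte markers to at most 0.01 TPM. The 5 monocyte markers summed to 20.7 to 58.6 TPM with CD163 at 0. Of the fibroblast markers, DCN and COL3A1 were near 0, and the sum of 16.1 and 18.8 TPM with PMA plus Ceefourin 2 and 14.7 and 9.32 TPM with PMA, against 0.09 and 0.17 TPM with Ceefourin 2 and 0.21 and 0.20 TPM in untreated cells, was almost all COL1A1. Mitochondrially encoded transcripts took 8.32% and 4.94% of counts with PMA plus Ceefourin 2, 9.61% and 4.53% with PMA, 2.77% and 3.11% with Ceefourin 2, and 2.55% and 3.94% in untreated cells. The part of these marker and mitochondrial differences in the results below was not tested.

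Replicates also stood apart in a list of genes linked to PERK signalling. What set these genes apart, and whether PERK was active, was not tested. Of 11 tested targets and partners of PERK signalling, such as ATF4, DDIT3 (CHOP), ATF3 and CHAC1, all 11 were higher in replicate 2 than in replicate 1 of the Ceefourin 2 group, and all 11 likewise in the untreated group. With PMA plus Ceefourin 2 it was 10 of 11, and with PMA 7 of 11. The median log2 ratio of replicate 2 to replicate 1 was 1.51 for Ceefourin 2 and 0.64 for untreated cells, with 0.19 for PMA plus Ceefourin 2 and 0.03 for PMA. CHAC1, which degrades glutathione, had 6.14 and 212 CPM (read counts relative to the library total, scaled by TMM) in Ceefourin 2 replicates 1 and 2 and 8.81 and 61.2 CPM in untreated ones. With PMA plus Ceefourin 2 it had 3.39 and 4.58 CPM and with PMA 4.12 and 2.23 CPM. The 40 genes did not follow: 16 of 40 were higher in replicate 2 of Ceefourin 2, 14 of 40 in replicate 2 of untreated cells, and the median log2 ratios were -0.04 and -0.07. HERPUD1 was the exception by size. For the 40 genes as a whole, the counts of calls below that rest on these libraries are also given without them.

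Ceefourin 2 without PMA was accompanied by higher levels of several chaperones and isomerases among the 40 genes. Relative to untreated cells, 8 of 40 genes rose and 0 fell (edgeR quasi-likelihood test, Benjamini-Hochberg adjusted p below 0.05 over all tested genes), where 0.959% of all tested genes rose and 0.722% fell, 1.68% together. At an unadjusted p below 0.05, 28 of the 40 were higher and 0 lower, against 7.47% and 6.12% of all tested genes. DESeq2 called 19 higher and 0 lower, where it called 508 higher and 330 lower of 17314. Both Ceefourin 2 libraries lay above both untreated libraries for 36 of 40 genes, against 19.8% of all tested genes, and below them for 0 of 40, against 20.9%. The median log2 fold change of the 40 genes was 0.39 and that of all tested genes was -0.0046. The estimate was positive for 39 of 40, ERN1 being the exception.

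These calls rest on few libraries. Without untreated replicate 1 or without untreated replicate 2 the count of rises was 0, without Ceefourin 2 replicate 1 it was 2, and without Ceefourin 2 replicate 2 it was 4. Leaving out a library of the PMA groups, which only enter through the shared estimate of spread, gave 6 without PMA replicate 1 and 5 without PMA replicate 2 or either PMA plus Ceefourin 2 replicate. The count was 0 when untreated and Ceefourin 2 replicates 2, the libraries high in PERK targets, were both left out, and the median was then 0.38. Over all single-library omissions the median lay between 0.35 and 0.41.

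**Figure D1:**
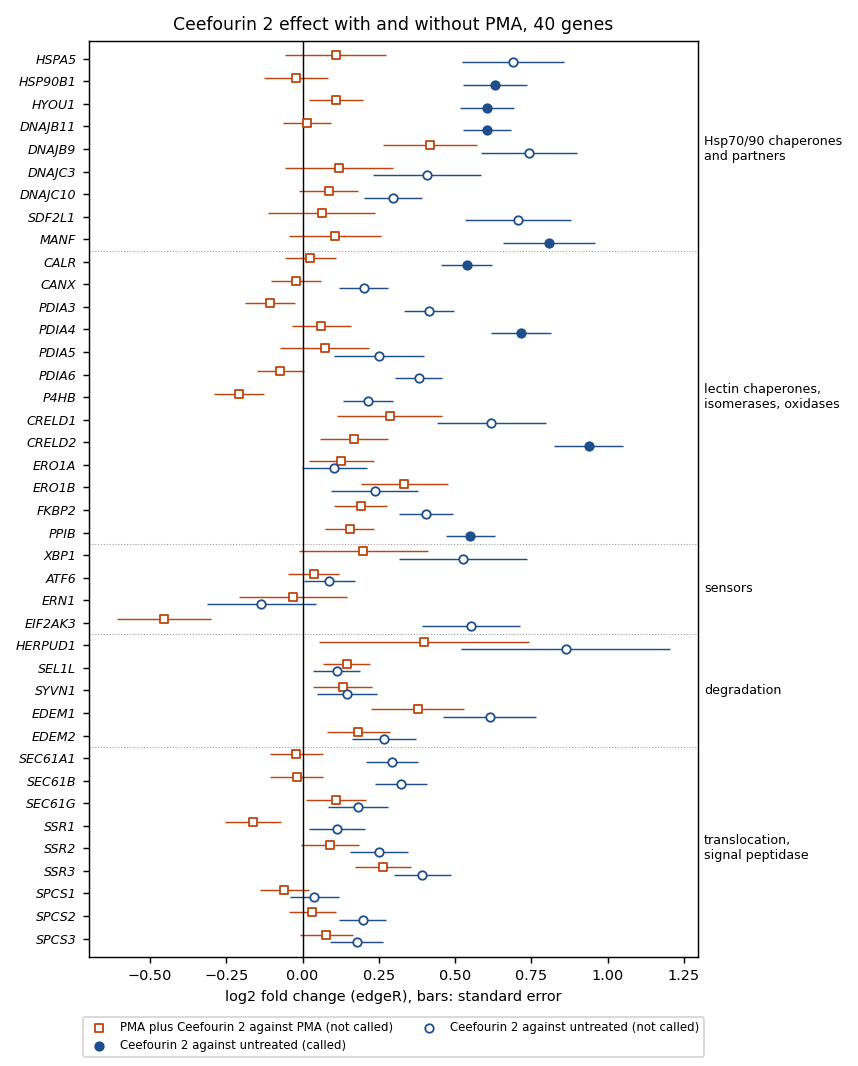
Log2 fold change with its standard error for each of the 40 genes, grouped by role, with filled points for called genes. The circles, without PMA (Ceefourin 2 against untreated), have 39 of 40 estimates above 0 and 8 called. The squares, with PMA (PMA plus Ceefourin 2 against PMA), lie closer to 0, between -0.45 and 0.42, with 0 called.

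Among the ATPase chaperones and co-chaperones, 4 of 9 rose with Ceefourin 2, against 0.959% of all tested genes. For 9 of 9 both Ceefourin 2 libraries lay above both untreated ones, against 19.8% of all tested genes. MANF, a secreted and lumenal factor that binds HSPA5, had 86.1 and 70.5 CPM with Ceefourin 2, against 49.2 and 40.3 CPM in untreated cells. Its log2 fold change was 0.81 (SE 0.15, adjusted p = 0.0457), and each treated library lay above each untreated one. HSP90B1, the lumenal HSP90, had 681 and 638 CPM with Ceefourin 2, against 465 and 387 CPM in untreated cells (log2 fold change 0.63, SE 0.11, adjusted p = 0.0324). HYOU1, a large HSP70-like exchange factor for HSPA5, had 261 and 267 CPM with Ceefourin 2, against 186 and 162 CPM in untreated cells (0.60 on the log2 scale, SE 0.09, adjusted p = 0.0203). DNAJB11, the J-domain partner that hands substrates to HSPA5, had 67.3 and 65.2 CPM with Ceefourin 2, against 44.1 and 43.1 CPM in untreated cells. It had the smallest SE of the 4, with a log2 fold change of 0.60 (SE 0.08, adjusted p = 0.0131).

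HSPA5 itself (the chaperone that holds the sensors inactive) did not pass the threshold. Its values were 1001 and 798 CPM with Ceefourin 2, against 640.1 and 475 CPM in untreated cells, so the groups did not overlap, but replicate 1 exceeded replicate 2 in both. The log2 fold change was 0.69 (SE 0.17, adjusted p = 0.0998). SDF2L1, a partner of DNAJB11, had 30.5 and 22.4 CPM with Ceefourin 2, against 17.8 and 14.7 CPM in untreated cells, and also missed the threshold (log2 fold change 0.71, SE 0.17, adjusted p = 0.107). DNAJB9, which returns ERN1 to its inactive state, had 14.5 and 10.4 CPM with Ceefourin 2, against 7.40 and 7.51 CPM in untreated cells (0.74, SE 0.16, adjusted p = 0.0671). DNAJC3 and DNAJC10 were higher by 0.41 and 0.30 on the log2 scale, not called.

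Of the 13 lectin chaperones and isomerases, 4 rose with Ceefourin 2, against 0.959% of all tested genes. CRELD2, a disulfide isomerase-like secreted factor, had 14.6 and 15.1 CPM with Ceefourin 2, against 8.17 and 7.38 CPM in untreated cells. This was the largest estimate among the 40, at a log2 fold change of 0.94 (SE 0.11, adjusted p = 0.0119), and lay between 0.88 and 1.03 whichever library was left out. PDIA4 (ERp72) had 177 and 166 CPM with Ceefourin 2, against 112 and 96.7 CPM in untreated cells (0.72, SE 0.10, adjusted p = 0.0150). PPIB (cyclophilin B), a lumenal prolyl isomerase, had 336 and 369.8 CPM with Ceefourin 2, against 238 and 244 CPM in untreated cells (0.55, SE 0.08, adjusted p = 0.0210). CALR, the soluble lectin chaperone and calcium store, had 1897 and 1921 CPM with Ceefourin 2, against 1379 and 1251 CPM in untreated cells (0.54, SE 0.08, adjusted p = 0.0239). Its membrane-bound counterpart CANX had 1272 and 1252 CPM with Ceefourin 2, against 1143 and 1054 CPM in untreated cells, and was not called (0.20, SE 0.08, adjusted p = 0.327). PDIA3 (0.41, adjusted p = 0.0541) and PDIA6 (0.38, adjusted p = 0.0588) lay just beyond the threshold.

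No sensor, degradation factor or translocation subunit was called with Ceefourin 2. In edgeR 0 of 4, 0 of 5 and 0 of 9 passed. At an unadjusted p below 0.05 the counts were 2 sensors, 3 degradation factors and 5 translocation subunits, all higher, and DESeq2 called 1, 1 and 2. EIF2AK3 had 15.4 and 13.9 CPM with Ceefourin 2, against 9.93 and 10.1 CPM in untreated cells (log2 fold change 0.55, adjusted p = 0.165). XBP1 had 195 and 230.3 CPM with Ceefourin 2, against 161 and 134 CPM in untreated cells (0.53, adjusted p = 0.321). ATF6 differed by 0.09 and ERN1 by -0.13. XBP1 splicing, the direct readout of ERN1 activity, is not analysed here because the values are per gene.

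HERPUD1, a membrane component of the degradation complex and a target of ATF6 and PERK signalling, carried the largest replicate gap of the 40. Its values were 35.3 and 75.7 CPM in Ceefourin 2 replicates 1 and 2, against 23.4 and 37.6 CPM in untreated replicates 1 and 2, so the groups overlapped, and replicate 2 was the higher in both, as for the PERK targets. The log2 fold change of 0.86 had an SE of 0.34 (adjusted p = 0.319). EDEM1, a mannosidase that marks glycoproteins for disposal, had 180.5 and 171 CPM with Ceefourin 2, against 125 and 105 CPM in untreated cells, without passing (0.61, adjusted p = 0.108). The 9 translocation subunits ranged from 0.04 for SPCS1 to 0.39 for SSR3.

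The regulation of several of these genes is known through short promoter elements, so their sequences are shown here. The endoplasmic reticulum stress element (ERSE, CCAAT and CCACG with 9 bases between them), bound by NF-Y and ATF6, and its shorter form (ERSE-II, ATTGG and CCACG with 1 base between them) were searched on both strands of RefSeq promoter windows reaching from 250 bases before to 50 bases after each annotated start (GRCh38.p14). The table held 52 windows of 38 of the 40 genes, with PDIA3 and SPCS1 not in it. ERSE stood in 8 of these 38 genes, 21.1%, against 0.0769% of all 35116 windows. In all, 25 of 27305 genes held it. The 8 were HSPA5, HSP90B1 with 2 copies, CALR, CANX, PDIA6, CRELD2, ERO1B and XBP1. ERSE-II stood in HYOU1 with 2 copies, in HERPUD1 and in SDF2L1, against 0.0541% of all windows. The HSP90B1 and CANX stretches are not printed, because 184 of 184 and 78 of 79 bases lie in an untranslated region annotated in GENCODE 29. Of those printed, XBP1 has 25 of 79 bases and HERPUD1 18 of 71 bases in such a region. The stretches below hold the elements of other genes that results turn on, in the direction of transcription. The 5 fixed bases at each end of an element are in capitals.
HSPA5, chr9:125241361-125241439, minus strand: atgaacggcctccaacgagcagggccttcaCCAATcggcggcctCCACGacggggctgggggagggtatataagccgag
CRELD2, chr22:49918524-49918602, plus strand: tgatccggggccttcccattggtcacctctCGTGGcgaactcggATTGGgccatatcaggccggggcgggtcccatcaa
CALR, chr19:12938359-12938432, plus strand: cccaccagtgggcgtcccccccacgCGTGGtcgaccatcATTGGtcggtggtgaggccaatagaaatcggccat
HYOU1, chr11:119057244-119057420, minus strand: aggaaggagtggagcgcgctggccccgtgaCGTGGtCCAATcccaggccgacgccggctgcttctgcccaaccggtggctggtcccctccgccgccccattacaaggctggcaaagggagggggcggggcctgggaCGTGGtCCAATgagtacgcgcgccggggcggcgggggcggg
XBP1, chr22:28800573-28800651, minus strand: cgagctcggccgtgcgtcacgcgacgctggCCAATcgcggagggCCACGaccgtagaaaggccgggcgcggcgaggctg
HERPUD1, chr16:56931995-56932065, plus strand: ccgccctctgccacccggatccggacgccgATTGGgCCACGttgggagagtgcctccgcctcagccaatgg

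In HSPA5 and XBP1 the CCAAT end comes first, in CRELD2 and CALR the element lies in the other orientation, and in HYOU1 both copies have the same letters. The element of HSPA5 spans 66 to 48 bases before its start and that of XBP1 52 to 34 bases before. Of the 11 genes with either element, 11 had a positive log2 fold change with Ceefourin 2 and 4 rose, with a median of 0.60. Of the 27 without, 26 were positive and 4 rose, with a median of 0.29. With PMA against untreated cells the order was the other way, with medians of -0.08 for the 11 (3 positive, 1 higher and 3 lower by call) and 0.17 for the 27 (18 positive, 10 higher and 5 lower). With PMA plus Ceefourin 2 against PMA the medians were 0.11 and 0.09, and 8 of 11 and 21 of 27 were positive. Of 2 further motifs, TGACGTGG stood in DNAJC10, SSR3 and HYOU1, in HYOU1 overlapping an ERSE-II copy, against 0.729% of all windows. TGATGNAAN, a composite site of CHOP and ATF4, stood in HERPUD1, against 3.61% of all windows. A match gives the letters present and is not a measurement of binding.

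When PMA was present, the same inhibitor moved none of the 40 genes past the threshold. Between PMA plus Ceefourin 2 and PMA alone, edgeR called 0 of 40, against 1.83% of all tested genes (0.918% higher and 0.913% lower). At an unadjusted p below 0.05, 4 were higher and 2 lower, against 7.59% and 6.15% of all tested genes, and DESeq2 called 0. The median log2 fold change was 0.09, against 0.0022 for all tested genes. Both PMA plus Ceefourin 2 libraries exceeded both PMA libraries for 16 of 40 genes, against 23.5% of all tested genes, and lay below for 4 of 40, against 21.9%.

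The extremes of this comparison were DNAJB9 and EIF2AK3. DNAJB9 had 22.5 and 23.0 CPM with PMA plus Ceefourin 2, against 17.2 and 16.8 CPM with PMA (log2 fold change 0.42, SE 0.15, adjusted p = 0.275). EIF2AK3 had 38.4 and 51.3 CPM with PMA plus Ceefourin 2, against 55.7 and 67.3 CPM with PMA (-0.45, SE 0.15, adjusted p = 0.234). The groups did not overlap in either gene. Both combination libraries lay above both PMA libraries for 5 of 5 degradation factors, against 23.5% of all tested genes. The counts were 2 of 9 for ATPase chaperones and co-chaperones and 7 of 13 for lectin chaperones and isomerases. They were 0 of 4 for sensors and 2 of 9 for translocation subunits. The degradation factors had log2 fold changes of 0.13 for SYVN1 to 0.40 for HERPUD1, and none was called. HSPA5 had 740.0 and 729 CPM with PMA plus Ceefourin 2, against 740.1 and 622 CPM with PMA, which overlapped (0.11, SE 0.17). HSP90B1 and CALR differed by -0.02 and 0.03.

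Whether the inhibitor effect differed with PMA was tested as an interaction, the effect of Ceefourin 2 in PMA cells minus its effect without PMA. As no dose is given for Ceefourin 2 without PMA, a difference in dose could not be told apart from one due to PMA. EdgeR called 0 of 40, where it called 0.0116% of all tested genes, and the smallest adjusted p was 0.180, for DNAJB11. At an unadjusted p below 0.05, 0 were higher and 16 lower, against 3.53% and 3.59% of all tested genes. DESeq2 called 81 genes higher and 126 lower in all, and of the 40 it called 9 lower: HSP90B1, DNAJB11, CALR, PDIA3, PDIA4, PDIA6, P4HB, CRELD2 and EIF2AK3. The estimate was negative for 36 of 40, with a median of -0.30, against 0.0003 for all tested genes. EIF2AK3 had the most negative estimate (-1.01, SE 0.22, adjusted p = 0.238), CRELD2 had -0.77 (SE 0.16, adjusted p = 0.219) and PDIA4 -0.65 (SE 0.14, adjusted p = 0.220). For these 9 genes DESeq2 thus called a difference between the inhibitor's effects with and without PMA, and edgeR with the filter on low counts did not. Without that filter edgeR called 7 of the 40 lower. It then called more genes in all, 171 higher and 243 lower of 29960, beside 2 higher and 0 lower with the filter. Without untreated and Ceefourin 2 replicates 2, edgeR again called 0, and the median was -0.27.

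**Figure D2:**
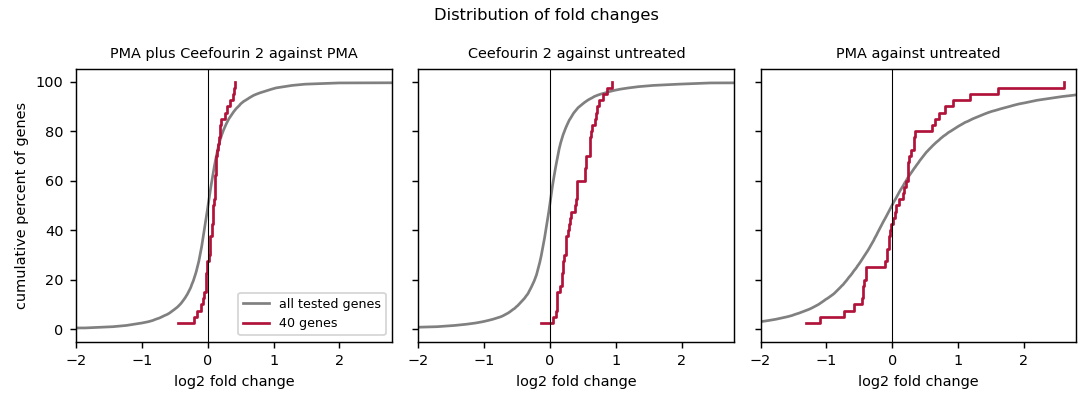
Distribution of log2 fold changes for the 40 genes beside that of all 17314 tested genes in each comparison. With Ceefourin 2 against untreated the median of the 40 lies at 0.39, above 88.2% of all tested genes, and with PMA plus Ceefourin 2 against PMA at 0.09.

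With PMA and no inhibitor, 21 of the 40 genes changed, in both directions, a share close to that of all tested genes. Relative to untreated cells 13 rose and 8 fell, that is 52.5%, where 27.9% of all tested genes rose and 25.7% fell, 53.6% together. The median log2 fold change was 0.08, against -0.002 for all tested genes. This comparison shares the untreated libraries with that of Ceefourin 2 and the PMA libraries with that of the combination. Both PMA libraries were above both untreated ones for 18 of 40 genes, against 39.1% of all tested genes, and below for 10, against 38.7%. Of the 21 calls, 16 stood whichever library was left out. ATF6, PDIA4, EDEM2, SEC61B and SPCS1 were each lost without at least 1 library, and the counts over these omissions were 9 to 13 rises and 7 to 9 falls. Without replicates 1 of both PMA groups, the libraries highest in mitochondrial transcripts, 8 rose and 6 fell. Without untreated and Ceefourin 2 replicates 2, those high in PERK targets, 11 rose and 9 fell.

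The largest rise and the largest fall with PMA were those of EIF2AK3 and XBP1. EIF2AK3 (PERK, chr2:88556741-88627576, minus strand) had 55.7 and 67.3 CPM with PMA, against 9.93 and 10.1 CPM in untreated cells. It rose 6.14-fold (log2 fold change 2.62, SE 0.17, adjusted p = 1.2e-05). XBP1, the transcription factor that ERN1 splices, had 72.0 and 47.5 CPM with PMA, against 161 and 134 CPM in untreated cells. It fell by 1.302 on the log2 scale (SE 0.21, adjusted p = 0.00137), and no PMA library reached an untreated one. ATF6 had 81.6 and 89.1 CPM with PMA, against 69.2 and 74.6 CPM in untreated cells, and rose by 0.25 (SE 0.08, adjusted p = 0.0362), a call lost in 5 of the single-library omissions. On log2(TPM + 1) its difference was -0.0018. ERN1 had 32.5 and 33.3 CPM with PMA, against 32.8 and 35.2 CPM in untreated cells (-0.05, SE 0.18, adjusted p = 0.838).

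Per length of transcript, the order of the sensors therefore differed between groups. EIF2AK3 stood at 20.4 and 21.5 TPM with PMA, against 4.25 and 4.71 TPM in untreated cells. ATF6 stood at 12.2 and 13.4 TPM with PMA, against 12.9 and 12.8 TPM in untreated cells. EIF2AK3 was thus above ATF6 in both PMA libraries and below it in both untreated ones. XBP1 was the highest of the 4 in every library, at 48.8 and 32.0 TPM with PMA, against 137 and 102 TPM in untreated cells. ERN1 lay between 5.81 and 8.66 TPM over all 8 libraries. With the inhibitor, EIF2AK3 stood at 13.4 and 17.9 TPM in PMA plus Ceefourin 2 and at 6.35 and 5.81 TPM in Ceefourin 2.

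**Figure D3:**
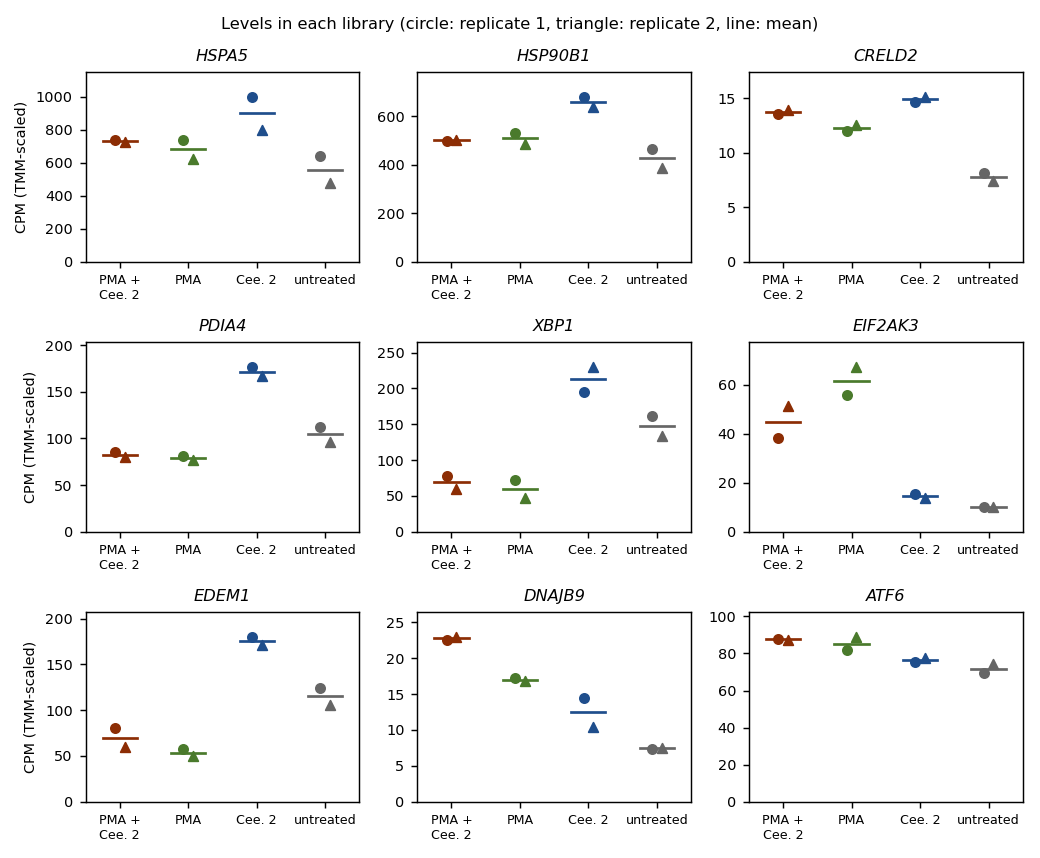
Level in CPM of 9 genes in each of the 8 libraries, by group, with lines at group means. EIF2AK3 is between 38.4 and 67.3 CPM in the 4 libraries with PMA and between 9.93 and 15.4 CPM in the 4 without, XBP1 and EDEM1 run the other way, and CRELD2 is lowest in untreated cells.

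Folding factors split by gene with PMA. CRELD1, a membrane-anchored relative of CRELD2, had 15.5 and 13.1 CPM with PMA, against 5.40 and 4.05 CPM in untreated cells, and rose by a log2 fold change of 1.60 (SE 0.18, adjusted p = 0.000196). DNAJB9 had 17.2 and 16.8 CPM with PMA, against 7.40 and 7.51 CPM in untreated cells (1.19, SE 0.16, adjusted p = 0.000460). PDIA5, a disulfide isomerase reported to act on ATF6, had 46.4 and 58.6 CPM with PMA, against 26.2 and 29.2 CPM in untreated cells (0.92, SE 0.15, adjusted p = 0.00121). FKBP2, CRELD2, DNAJB11 and PDIA3 also rose, by 0.80, 0.66, 0.61 and 0.34.

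In the same class ERO1A, the oxidase that recharges disulfide isomerases, had 48.0 and 46.4 CPM with PMA, against 83.7 and 72.9 CPM in untreated cells, and fell by 0.73 on the log2 scale (SE 0.11, adjusted p = 0.000755). CANX had 829 and 794 CPM with PMA, against 1143 and 1054 CPM in untreated cells (-0.44, SE 0.08, adjusted p = 0.00253). PDIA6 fell by 0.42 and PDIA4 by 0.40. The PDIA4 call was lost without untreated replicate 1 and without PMA replicate 2. HSPA5 (0.29, adjusted p = 0.176), HSP90B1 (0.26, adjusted p = 0.0708) and CALR (-0.08, adjusted p = 0.433) were not called.

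Of the degradation factors, SYVN1, the ubiquitin ligase HRD1, had 65.4 and 61.0 CPM with PMA, against 39.4 and 37.7 CPM in untreated cells (log2 fold change 0.71, SE 0.10, adjusted p = 0.000550). EDEM1 had 57.3 and 50.02 CPM with PMA, against 125 and 105 CPM in untreated cells, and fell by 1.10 (SE 0.15, adjusted p = 0.000605). EDEM2, its relative, rose by 0.35 (adjusted p = 0.0234), a call lost in 3 single-library omissions. HERPUD1 had 24.6 and 20.0 CPM with PMA, against 23.4 and 37.6 CPM in untreated cells, which overlapped. Among translocation subunits, SSR3 and SSR1 of the translocon-associated complex fell by 0.59 and 0.44, and SEC61B and SPCS1 rose by 0.24 each. On log2(TPM + 1) SEC61B and SPCS1 had estimates of -0.01, where the median of all tested genes was itself -0.14.

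**Figure D4:**
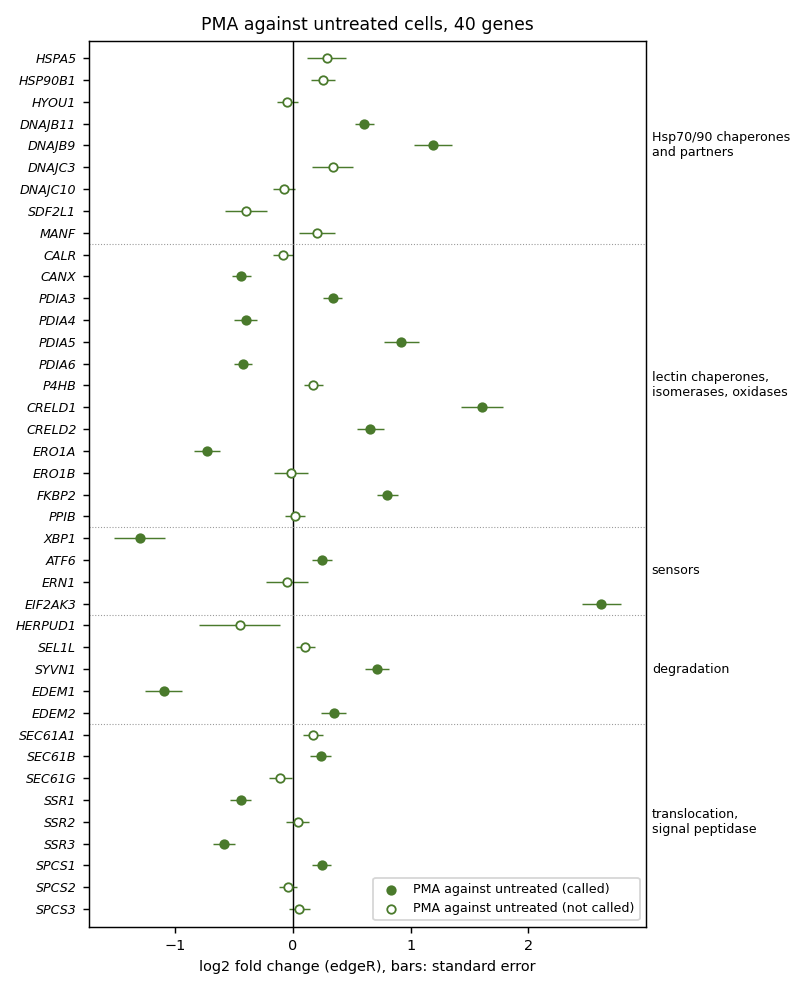
Log2 fold change with its standard error for PMA against untreated cells in each of the 40 genes, grouped by role, with filled points for called genes. Of the 40, 13 rose and 8 fell, from EIF2AK3 at 2.62 to XBP1 at -1.302.

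As a whole the 40 genes took 0.700% of counts in both libraries with PMA plus Ceefourin 2, 0.713% and 0.709% with PMA, 1.11% and 1.06% with Ceefourin 2, and 0.864% and 0.775% in untreated cells. CALR alone made up 18.9% of their summed TPM and P4HB 11.3%, so sums reflect few genes. By mean CPM, 9 of the 40 were ordered with Ceefourin 2 first, then untreated cells, then the combination, then PMA, among them XBP1, EDEM1, PDIA4 and CALR. Another 8 were highest with the combination, then PMA, then Ceefourin 2, then untreated cells, among them DNAJB9, CRELD1 and SYVN1. Ceefourin 2 had the highest mean for 26 of the 40.

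**Figure D5:**
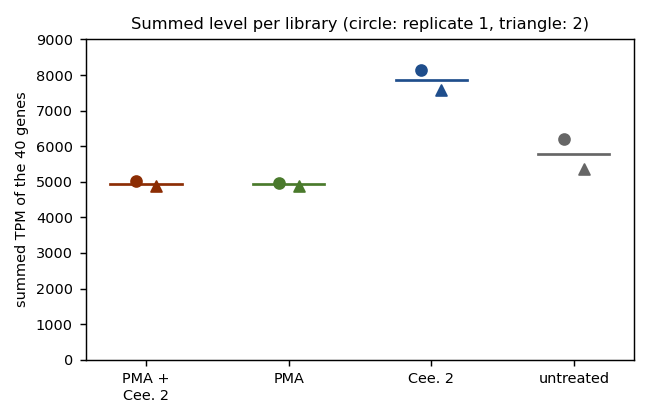
Summed TPM of the 40 genes in each library, by group, with lines at group means. The sums were 5012 and 4886 TPM with PMA plus Ceefourin 2, 4975 and 4893 TPM with PMA, 8135 and 7589 TPM with Ceefourin 2, and 6215 and 5371 TPM in untreated cells.

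Across the 8 libraries, the genes whose log2 CPM followed HSPA5 most closely by Pearson correlation were SEC24D, a coat subunit of vesicles leaving the endoplasmic reticulum (r = 0.976), SEC61A1, the channel-forming subunit (0.955), the ephrin EFNB1 (0.955), MANF (0.952) and the connexin GJA3 (0.950). HSP90B1 followed in 6th place (0.945). The libraries fall into 4 treatments, so these values describe the pattern over groups.

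The wider pathway was followed with 131 tested genes on 7 further lists, also chosen with earlier results of these data known. With Ceefourin 2 against untreated cells 3 rose and 0 fell, where 0.959% and 0.722% of all tested genes did. They were QSOX1, a sulfhydryl oxidase (log2 fold change 0.54, adjusted p = 0.0346), SURF4, a cargo receptor (0.43, adjusted p = 0.0393), and SEC24D (0.84, adjusted p = 0.0409). SEC24D had 57.1 and 47.3 CPM with Ceefourin 2, against 33.1 and 25.3 CPM in untreated cells, without overlap. All 3 calls were lost when any one of the 8 libraries was left out, with SEC24D estimates of 0.67 to 1.06. Without Ceefourin 2 replicate 1, other genes of these lists were called higher. At an unadjusted p below 0.05, 31 were higher and 1 lower, against 7.47% and 6.12% of all tested genes, and DESeq2 called 16 higher. Of the 30 further folding factors 1 rose and 19 had a positive estimate, with a median of 0.06, beside the median of 0.39 for the 40. Of the 11 PERK targets and partners 0 were called in edgeR, 3 were higher at an unadjusted p below 0.05, and DESeq2 called 1. All 11 had a positive estimate, with a median of 0.98, above that of the 40. Their replicates stood apart, as given above, and 2 of 11 had both Ceefourin 2 libraries above both untreated ones, against 19.8% of all tested genes.

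With PMA plus Ceefourin 2 against PMA, 1 of the 131 was called, STT3B, a catalytic subunit of oligosaccharyltransferase. It had 243 and 225 CPM with the combination, against 317 and 314 CPM with PMA, and fell by 0.43 (adjusted p = 0.0499), a call lost when any one of the 8 libraries was left out. DESeq2 called 2 higher and 1 lower. In the interaction 0 of 131 were called in edgeR, 0 higher and 11 lower at an unadjusted p below 0.05, and DESeq2 called 2 lower. The PERK targets and partners had 10 of 11 negative interaction estimates, with a median of -0.85 and 0 called.

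With PMA against untreated cells, 43 of the 131 rose and 30 fell, beside the 27.9% and 25.7% of all tested genes given above. Further degradation factors mostly rose, 14 of 24 against 2 that fell, with UBXN4, which recruits VCP to the membrane, at 0.72 and DERL3 at -1.39 as examples. Further folding factors split into 8 rises and 8 falls of 30, with PPIC at 2.10 and PDIA2 at -2.25. Of the regulators outside the 40, 4 of 12 rose, among them CREB3 (1.37) and ATF6B (0.99), relatives of ATF6, and 3 fell, among them MBTPS2 (-0.85) and MBTPS1 (-0.56), the proteases that release ATF6. Of the PERK targets 1 of 11 rose and 2 fell: PPP1R15A (GADD34) rose by 2.33, and ASNS and ATF4 fell by 1.69 and 1.14, the ATF4 call being lost without untreated replicate 2 (adjusted p = 0.117), PMA replicate 1 or PMA replicate 2. ATF4 had 184 and 191 CPM with PMA, against 315 and 513 CPM in untreated cells. Of the other lists, 7 of 18 translocation genes rose and 5 fell, 4 of 13 oligosaccharyltransferase subunits rose and 2 fell, and 5 of 23 genes of transport to the Golgi rose and 8 fell.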

How the data were processed

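Stranded mRNA libraries (paired reads) of MEG-01 cells were used, 2 per group. The submitters' processing notes name STAR 2.7, RSEM 1.3.1 and the build hg38, and the sources used here give no annotation release. The authors deposited expected counts per gene, not normalized, and TPM values per gene. Per library, 7.05% to 7.83% of genes had a count that was not whole (tolerance 1e-06), and all were rounded before testing.

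Genes were kept by filterByExpr, libraries scaled by TMM (factors 0.92 to 1.083), and 1 edgeR 4.0.16 quasi-likelihood fit in R 4.3.3 used all 8 libraries with a mean per group (4 residual degrees of freedom, 3.95 added by sharing spread across genes, common biological coefficient of variation 13.6%). P values were adjusted by Benjamini-Hochberg over 17314 genes, and a gene was called below 0.05. Rose and fell refer to called genes. SE was taken as the size of the log2 fold change over the root of F. Levels are CPM with TMM scaling within genes and TPM between genes. Alternatives used DESeq2 1.42.0, limma 3.58.1 on log2(TPM + 1) and log2(TPM + 0.1), other filters, a replicate block, and fits with libraries left out. The fit was tested on data simulated for PMA plus Ceefourin 2 against PMA. There 16 of 198 calls were false, and 84% of 2-fold and 98% of 4-fold changes were recovered. The results cover no smaller changes and no other comparison.

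The 40 genes and the pathway and marker lists were chosen with earlier results of these data known. Every one of the 40 could be named. Those with the largest called changes in each comparison, and the chief chaperones and sensors, were given per library, and of each other list up to 2 called genes per direction with the smallest p were named, except 1 gene that is not reported here. Further members given per library, and CHAC1, DDIT3 and ATF3, were chosen after their values were seen. Gene positions are from GENCODE (GRCh38), promoter sequences from RefSeq (GRCh38.p14).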

Additional observations from a re-analysis of the deposited data

How the results depend on the processing

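Among the 40 genes, the count called higher with Ceefourin 2 against untreated cells was 8 and moved most. It was 19 with DESeq2, 21 with no filter on low counts, 24 with a replicate block, and 0 when only the compared groups were fitted. Over all tested genes these fits called 508, 696, 807 and 15 higher, beside 166 in the main fit. It was also 0 with replicates 1 of both PMA groups left out, with untreated and Ceefourin 2 replicates 2 left out (chosen after seeing the data), and between 0 and 6 when 1 library was left out. For PMA against untreated cells, where 13 rose and 8 fell, 8 rose and 14 fell on log2(TPM + 1) and on log2(TPM + 0.1), scales on which the median of all tested genes was -0.14 and -0.22, and 8 rose without replicates 1 of both PMA groups. Of the genes called in edgeR or on those scales, PPIB (-0.23, called), ATF6 (-0.0018 and -0.0020), SEC61B (-0.0142 and -0.0143) and SPCS1 (-0.0081 on both) changed sign. Genes not called in edgeR could also go the other way in TPM. P4HB, at 0.17 in edgeR, had a mean of 639 TPM with PMA and 679 TPM in untreated cells. For PMA plus Ceefourin 2 against PMA, with 0 called, 1 was higher and 1 lower with no filter and with a replicate block. In the interaction, with 0 called, 9 were lower with DESeq2, 7 with no filter and 9 with a replicate block. Over all tested genes these fits called 126, 243 and 133 lower, beside 0 in the main fit. The fit of only the compared groups gives no interaction. The cause of these differences was not tested.

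The labels number replicates 1 and 2 in each group without saying what they share. Replicate differences correlated across genes by 0.14 to 0.36 between groups, and the samples are treated as sharing only a number. With the replicate block, PMA against untreated cells had 19 rises and 9 falls.

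With 2 libraries per group, a library left out leaves a lone one that is assumed to vary like the others. Of the 21 calls with PMA, 14 stood under all alternatives, and of the 8 with Ceefourin 2 none did. For genes of the wider lists, 28 of 131 rose and 45 fell with PMA on log2(TPM + 1). The lowest level among the 40 genes in any library was 4.05 CPM, and the part of depth in the calls was not tested.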
